A study of Mus musculus with 8 samples.

Results

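The coagulation and complement genes are 37 of the 21911 protein-coding genes placed on the mouse genome here. 21 of them encode proteins of clotting and fibrinolysis and 16 encode proteins of the complement cascade. The members are named genes, and the rule that lists them uses no measured value. Chromatin accessibility at these genes was read from 8 bulk ATAC-Seq libraries of C57BL/6 mouse hepatocytes, in which the Tn5 transposase cuts open DNA and the cut sites are sequenced. The hepatocytes came from adult male animals aged 10 to 12 weeks on a normal diet and were isolated by collagenase perfusion. 2 libraries came from healthy, undamaged liver (0 h). The other 6 followed partial hepatectomy (PHx), in which liver lobes are cut away, with 2 libraries each at 48, 72 and 96 h. Each library averages over all nuclei of a preparation.

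Most proteins of both cascades are made by hepatocytes and secreted into blood as inactive precursors. In coagulation, serine proteases activate one another in sequence until thrombin cuts fibrinogen into fibrin. Serpins and the protein C pathway brake the sequence, and plasmin dissolves the clot. In complement, recognition proteins such as mannose-binding lectin trigger proteases that cleave C3 and C5, after which the terminal components assemble a pore in the target membrane. Many of these genes are also acute-phase genes, whose transcription in liver responds to inflammation.

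A library was represented by its list of peaks, which are intervals of open chromatin called against local background. Intervals were ranked within each list by the deposited −log10 p, so that rank 1 is the strongest interval. The promoter value of a gene is the rank of its strongest interval within 1 kb of any annotated transcription start site, which need not be the same interval in each library. A promoter was called lower at a time when both of its ranks there were behind both 0 h ranks, and higher in the reverse case. With 2 libraries against 2, the smallest two-sided p that an exact permutation test allows is 0.333, so these calls are descriptions without a p-value. Counts of calls are read against the share of all coding promoters that met the same condition. The base of that share is the promoters with an interval in both 0 h lists for lower calls (13748) and in both lists of the later time for higher calls.

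6 promoters carry the pattern described below, because they were called lower at all 3 times after PHx. Their sequences directly before the RefSeq start site are given for GRCm38.p6, 5′ to 3′ on the strand of the gene. Capitals mark matches to the motifs listed further on. The Fga and C6 stretches stop where an annotated exon of another transcript begins.
F9 promoter, chrX:59999214-59999463, plus strand: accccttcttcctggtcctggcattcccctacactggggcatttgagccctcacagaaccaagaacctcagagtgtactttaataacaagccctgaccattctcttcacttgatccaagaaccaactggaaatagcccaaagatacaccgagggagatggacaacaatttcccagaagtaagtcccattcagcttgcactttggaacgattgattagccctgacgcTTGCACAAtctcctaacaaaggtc
Serpind1 promoter, chr16:17331121-17331370, plus strand: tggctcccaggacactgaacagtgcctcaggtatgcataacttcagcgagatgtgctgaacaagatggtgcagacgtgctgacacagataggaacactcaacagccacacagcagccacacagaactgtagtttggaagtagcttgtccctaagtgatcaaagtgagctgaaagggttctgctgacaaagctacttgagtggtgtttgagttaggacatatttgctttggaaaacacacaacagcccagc
Fga promoter, chr3:83025903-83026075, plus strand: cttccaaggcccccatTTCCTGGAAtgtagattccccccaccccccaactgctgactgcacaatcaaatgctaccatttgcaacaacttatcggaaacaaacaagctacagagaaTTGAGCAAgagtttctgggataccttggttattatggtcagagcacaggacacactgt
Fgb promoter, chr3:83049864-83050113, minus strand: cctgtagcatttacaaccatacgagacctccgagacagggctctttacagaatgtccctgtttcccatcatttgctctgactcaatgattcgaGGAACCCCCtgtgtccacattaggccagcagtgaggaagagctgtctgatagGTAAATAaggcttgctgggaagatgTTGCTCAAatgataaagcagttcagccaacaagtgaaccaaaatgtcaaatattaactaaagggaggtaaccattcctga
C6 promoter, chr15:4726960-4727174, plus strand: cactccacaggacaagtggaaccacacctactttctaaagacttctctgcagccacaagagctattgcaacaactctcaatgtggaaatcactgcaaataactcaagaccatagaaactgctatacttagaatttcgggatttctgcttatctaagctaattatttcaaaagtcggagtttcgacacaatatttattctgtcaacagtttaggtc
Mbl2 promoter, chr19:30232678-30232927, plus strand: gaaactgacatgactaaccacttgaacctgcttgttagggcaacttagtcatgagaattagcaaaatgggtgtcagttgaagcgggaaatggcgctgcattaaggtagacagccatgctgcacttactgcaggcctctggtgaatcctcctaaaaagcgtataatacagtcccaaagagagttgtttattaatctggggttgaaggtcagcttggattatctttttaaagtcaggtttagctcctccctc
The Fgb stretch held 3 matches, a FOXA, a C/EBP and an NF-kB motif. The Fga stretch held a STAT and a C/EBP match, and a HNF1 match lay closer to the start site in the part not shown, at positions -46 to -38. The F9 stretch held 1 C/EBP match 24 to 17 bases before the start site. The Serpind1, C6 and Mbl2 stretches held none of the motifs searched.

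5 regions outside promoters are shown because the later results turn on them. They are the F9 and Cfi introns with the smallest p at 48 h, and strong regions of F10, Pros1 and C3 that lay on the same side of 0 h at all 3 times. The last 3 were chosen after their values were seen. Each stretch is 200 bases of GRCm38.p6 around the summit, with the central 20 bases in capitals.
F9 intron, chrX:60014564-60014763, plus strand: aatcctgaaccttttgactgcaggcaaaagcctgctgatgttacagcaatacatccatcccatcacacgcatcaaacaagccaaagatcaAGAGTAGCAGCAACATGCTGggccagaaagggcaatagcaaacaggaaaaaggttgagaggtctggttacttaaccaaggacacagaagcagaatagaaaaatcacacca
Cfi intron, chr3:129846022-129846221, plus strand: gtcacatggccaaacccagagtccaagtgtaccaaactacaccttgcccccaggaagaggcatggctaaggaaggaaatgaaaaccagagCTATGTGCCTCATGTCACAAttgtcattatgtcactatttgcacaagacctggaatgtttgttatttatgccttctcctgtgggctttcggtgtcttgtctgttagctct
Pros1 intron, chr16:62922381-62922580, plus strand: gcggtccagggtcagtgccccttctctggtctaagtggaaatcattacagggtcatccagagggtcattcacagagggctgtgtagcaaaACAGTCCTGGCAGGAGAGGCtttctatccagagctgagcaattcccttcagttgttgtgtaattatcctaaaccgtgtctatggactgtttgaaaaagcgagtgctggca
F10 downstream region, chr8:13057391-13057590, plus strand: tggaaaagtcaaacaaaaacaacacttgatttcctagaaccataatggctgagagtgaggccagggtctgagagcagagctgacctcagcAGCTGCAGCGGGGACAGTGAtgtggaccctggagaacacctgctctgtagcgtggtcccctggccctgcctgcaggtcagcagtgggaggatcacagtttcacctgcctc
C3 upstream region, chr17:57233143-57233342, minus strand: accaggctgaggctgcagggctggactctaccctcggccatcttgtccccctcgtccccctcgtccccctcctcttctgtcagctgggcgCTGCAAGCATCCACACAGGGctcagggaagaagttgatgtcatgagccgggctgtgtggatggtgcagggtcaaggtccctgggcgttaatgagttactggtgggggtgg
The Cfi stretch held 1 match to the C/EBP motif, starting 28 bases after its summit, and the other 4 stretches held no match to any motif searched.

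The deposited lists held between 105206 and 154577 distinct intervals and covered 42.0 to 62.9 Mb. The list of 0 h replicate 2 had the fewest intervals. The promoter ranks of 1 gene in the 2 libraries of 0 h differed by a factor of 1.62 at the median in coagulation and 1.37 in complement, and by up to 4.23 for Pros1. Read counts are not in the lists, so the depth behind a peak is unknown. The 72 h replicate 2 list carries a different run name from the other 7, and run and replicate cannot be told apart within 72 h.

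All 37 members had a promoter interval in both 0 h lists, and 36 of them had one in all 8 lists. Fgb was the exception and was absent from the list of 72 h replicate 2. Of all coding genes, 13200 had a promoter interval in all 8 lists and 5501 in none. At 0 h the median promoter rank was 24820 and 15892 for coagulation and 30996 and 19740 for complement (replicates 1 and 2). The median over all coding genes, those without an interval counted last, was 31088 and 30173. Few members were among the strongest promoters. Promoters within the first 10000 ranks made up 19.0% and 23.8% of coagulation and 6.25% and 6.25% of complement, beside 28.6% and 29.6% of all coding genes. The members therefore combined near-complete detection with middling strength. Their 0 h promoter intervals were 545 and 560 bp wide at the median in coagulation and 699.5 and 652 bp in complement, beside 830 and 819 bp over all coding genes.

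The strength of a promoter varied widely among the members. Factor VII (F7), the protease that starts clotting with tissue factor, had the strongest promoter, with ranks of 4066 and 1444 at 0 h against 3405 and 4054 (48 h), 3509 and 8504 (72 h) and 3895 and 6250 (96 h). Protein S (Pros1), the cofactor of activated protein C, followed with 2370 and 10017, 2793 and 5507, 3416 and 1524, and 3238 and 7523 at the same times. The F7 ranks went no further back than 8504 and the Pros1 ranks no further than 10017, and their 0 h and PHx ranks overlapped at each time. Plasminogen (Plg), the precursor of plasmin, ranked 4869 and 8567 at 0 h against 20952 and 14383 (48 h), 5717 and 18865 (72 h) and 12484 and 6343 (96 h). Plg was behind its 0 h ranks in both libraries at 48 h, and its ranks overlapped 0 h at 72 and 96 h. At the weak end stood F11, the intrinsic-pathway protease, with 47134 and 52822 at 0 h against 72274 and 95308 (48 h), 55823 and 73025 (72 h) and 87384 and 43964 (96 h).

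In complement, C4bp, an inhibitor of the classical pathway, had the best median promoter rank at 0 h. Its ranks were 14420 and 7625 at 0 h against 8552 and 22052 (48 h), 11720 and 33490 (72 h) and 10419 and 27800 (96 h). Replicate 2 was behind replicate 1 at each PHx time, and no time was separated from 0 h. C8b and C8g encode chains of the terminal component C8. C8b ranked 8677 and 17618 at 0 h against 18074 and 30511 (48 h), 15394 and 10329 (72 h) and 9890 and 16095 (96 h). C8g ranked 14101 and 14970 at 0 h against 46592 and 35173 (48 h), 31254 and 19747 (72 h) and 10668 and 13096 (96 h). Both were lower at 48 h, and C8g was lower at 72 h and higher at 96 h. The interval of C8g also lay within 1 kb of a start site of Fbxw5, so the signal of the 2 genes cannot be told apart. Hc, the mouse gene for complement C5, and Masp1, a protease of the lectin pathway, had the weakest promoters. Hc ranked 53122 and 72388 at 0 h against 56741 and 28624 (48 h), 60793 and 70674 (72 h) and 51026 and 100137 (96 h). Masp1 ranked 54096 and 49924, 56755 and 36555, 33018 and 53532, and 57096 and 43887 in the same order. Neither was separated from 0 h at any time.

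**Figure D1:**
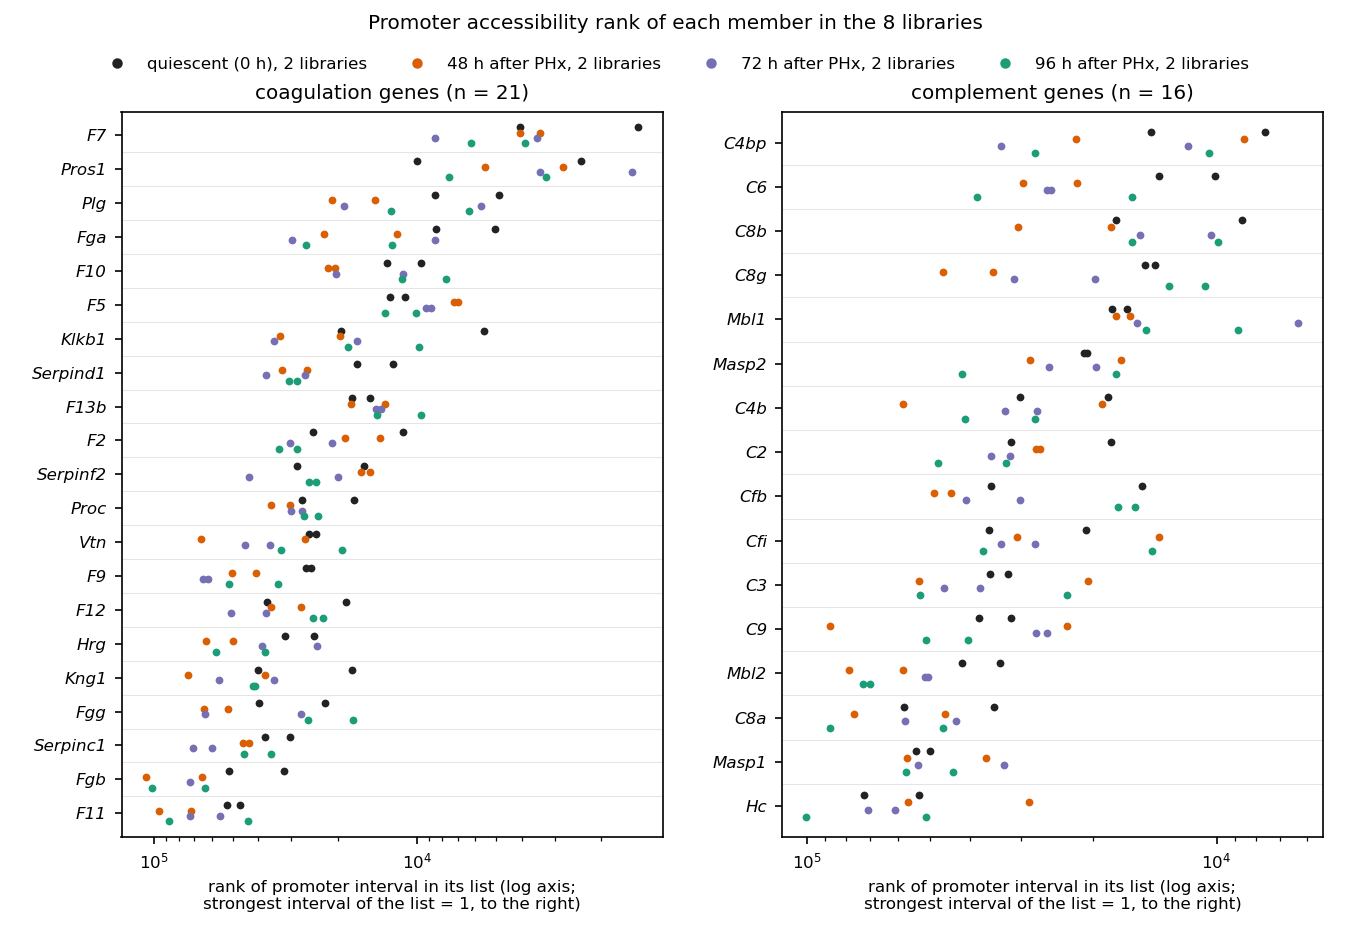
Rank of the promoter interval of each coagulation gene (left) and complement gene (right) in each of the 8 libraries, on a log axis with the strongest place to the right; each point is 1 library and genes are ordered by their median rank at 0 h. No library puts F7 behind rank 8504 or Pros1 behind 10017, and the points of F9, Serpind1, Fga, Fgb, C6 and Mbl2 after PHx all lie to the left of both 0 h points.

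The first comparison asked whether promoters of the 2 cascades changed place after PHx. At 48 h, 13 of 21 coagulation promoters (61.9%) were lower than at 0 h, where 29.7% of coding promoters with an interval in both 0 h lists were. Among complement promoters 5 of 16 (31.2%) were lower, which is close to that background. At 72 h, 9 coagulation promoters (42.9%) and 5 complement promoters (31.2%) were lower, beside 32.5% of coding promoters. At 96 h, 7 coagulation promoters (33.3%) and 4 complement promoters (25%) were lower, beside 20.5%. At 48 h, 1 coagulation promoter (4.76%) and 0 complement promoters were higher, beside 18.2% of coding promoters with an interval in both 48 h lists. At 72 h, 2 of the 20 coagulation promoters in both lists (10%) and 2 complement promoters (12.5%) were higher, beside 17.6%. At 96 h the higher counts were 1 (4.76%) and 2 (12.5%), beside 15.7%. The 3 times share the same 0 h libraries, so their counts are not independent of each other. In bulk nuclei, a smaller share of hepatocytes with a promoter open and less opening per nucleus cannot be told apart.

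Coding promoters as a whole ranked further back after PHx. The median of the log2 ratio of the PHx rank over the 0 h rank was 0.19 at 48 h, 0.23 at 72 h and 0.09 at 96 h over all coding promoters, where a positive value is a weaker place. For coagulation it was 0.75, 0.64 and 0.31, and for complement 0.38, 0.23 and 0.29. When promoters were ranked among coding promoters alone, 10 coagulation promoters were lower and 3 higher at 48 h, and 4 complement promoters were lower and 1 higher, beside 23.1% lower and 22.9% higher of coding promoters. The lower counts on that scale were 6 and 3 at 72 h, beside 23.9%, and 6 and 3 at 96 h, beside 17.9%. With the percentile in the list, which adjusts for the length of a list, the lower counts were 10 and 4 (48 h), 5 and 2 (72 h) and 6 and 2 (96 h). The shares of coding promoters were then 23.3%, 17.4% and 12.8%. The higher counts by percentile were 2 and 1 (48 h), 2 and 3 (72 h) and 3 and 4 (96 h), beside 21.7%, 28.9% and 23.8% of coding promoters.

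**Figure D2:**
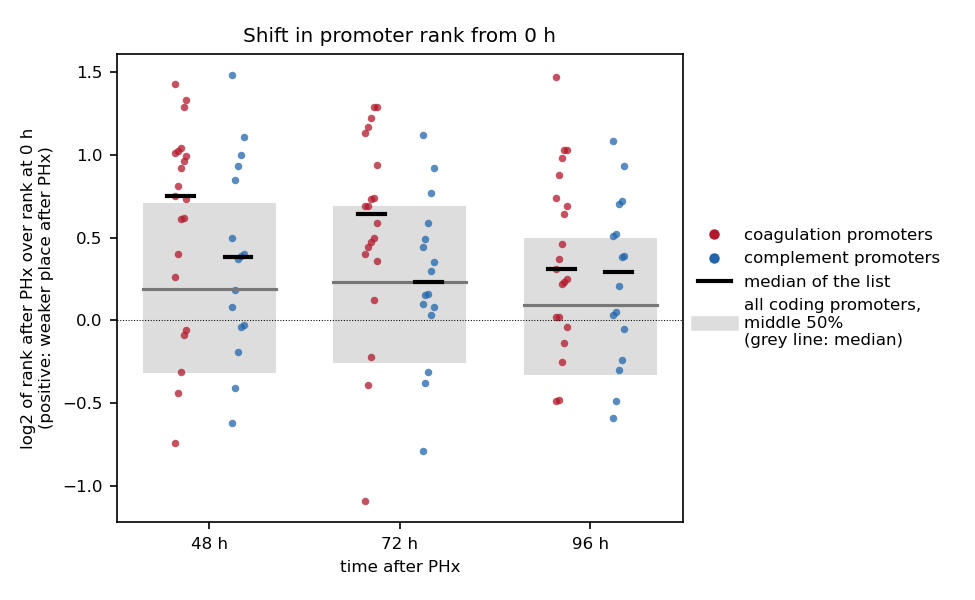
Log2 ratio of the geometric mean rank after PHx over that at 0 h for each member promoter at 3 times. Positive values are weaker places. Bars are list medians and the grey band spans the middle 50% of all coding promoters. The coagulation median of 0.75 at 48 h lies above the band, and the complement medians of 0.38, 0.23 and 0.29 lie within it.

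6 promoters were lower at all 3 times, 4 of coagulation (19%) and 2 of complement (12.5%), as were 1101 of 13748 coding promoters (8.01%). No member was higher at all 3 times, as were 646 of the 13461 coding promoters with an interval in all PHx lists (4.80%). On other scales some were, namely Mbl1 by percentile, F13b and Mbl1 by rank among coding promoters and F5 by fold enrichment. Of coding promoters with an interval in all PHx lists, 7.67%, 6.14% and 4.61% were higher at all 3 times on these scales, in that order. F9 (chrX:59999464-60030759, plus strand) encodes the protease that is lacking in hemophilia B. Its promoter ranked 25309 and 26379 at 0 h against 40714 and 50501 (48 h), 61939 and 64788 (72 h) and 51552 and 33555 (96 h). Its fold enrichment over local background was 11.1 and 10.6 at 0 h and between 5.12 and 7.36 in the 6 PHx libraries. The 2 groups of values do not overlap. The median over all coding promoters with an interval was also lower after PHx, at 7.76 to 10 against 10.6 and 11.1 at 0 h. Serpind1 (chr16:17331371-17343575, plus strand) encodes heparin cofactor II, an inhibitor of thrombin. Its ranks were 16923 and 12269 at 0 h against 26129 and 32475 (48 h), 26668 and 37476 (72 h) and 28458 and 30487 (96 h). All 6 PHx libraries lay close together and behind both 0 h libraries.

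The fibrinogen genes lie in 1 cluster on chromosome 3 and encode the 3 chains of fibrinogen. Fga (chr3:83026076-83033627, plus strand) ranked 5048 and 8474 at 0 h against 11923 and 22552 (48 h), 29927 and 8515 (72 h) and 26457 and 12444 (96 h). The call at 72 h rests on a narrow margin, since 72 h replicate 2 lay only just behind 0 h replicate 2. Fgb (chr3:83040141-83049863, minus strand) had a much weaker promoter, with 51894 and 31937 at 0 h against 106765 and 65466 (48 h), 72461 and absent (72 h) and 63955 and 101339 (96 h). Fgg was lower at 48 h, with 39617 and 22318 at 0 h and 64278 and 52087 at 48 h. Its ranks of 27617 and 63768 (72 h) and 17452 and 25836 (96 h) overlapped those at 0 h. All 3 fibrinogen promoters were thus lower at 48 h, and the alpha and beta chain promoters were lower at each time.

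Among complement genes, C6 (chr15:4727175-4814967, plus strand) encodes a terminal component. Its promoter ranked 13810 and 10076 at 0 h against 29574 and 21872 (48 h), 25345 and 25878 (72 h) and 16052 and 38505 (96 h). Mbl2 (chr19:30232942-30239687, plus strand), which encodes a mannose-binding lectin, ranked 41849 and 33670 at 0 h against 58352 and 78670 (48 h), 50462 and 51410 (72 h) and 70088 and 72879 (96 h). The other mannose-binding lectin gene, Mbl1, lay on the opposite side. Its ranks were 18025 and 16495 at 0 h against 16270 and 17554 (48 h), 15667 and 6313 (72 h) and 8841 and 14854 (96 h), which made it higher at 72 and 96 h. Of these 6 promoters, F9, Serpind1, Fgb, C6 and Mbl2 were also lower at all 3 times by percentile and by rank among coding promoters, and Fga was not. Of coding promoters, 3.92% were lower at all 3 times by percentile and 5.32% by rank among coding promoters. Ranked by fold enrichment, F9, Serpind1, Fga, Fgb and Mbl2 were, and C6 was not, beside 4.74% of coding promoters.

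By role, 3 of 8 clotting factor promoters (F9, F10 and F11) were lower at 48 h, which is near the 29.7% of coding promoters. F5, the cofactor of factor Xa, was the 1 member that was higher at 48 h. It ranked 11128 and 12631 at 0 h against 7249 and 6979 (48 h), 9238 and 8844 (72 h) and 13188 and 10070 (96 h). F5 and F13b, the carrier subunit of factor XIII, were higher at 72 h, and F13b was higher at 96 h. F2, which encodes prothrombin, was lower at 96 h. Of the anticoagulant genes, Proc (protein C), Serpinc1 (antithrombin) and Serpind1 were lower at 48 and 72 h, and Pros1 was in no call. The Proc call at 72 h rests on a narrow margin, with a rank of 27235 in 72 h replicate 2 against 27202 in 0 h replicate 2. Serpinc1 ranked 37825 and 30362 at 0 h against 43326 and 45910 (48 h), 60139 and 70655 (72 h) and 35728 and 45184 (96 h). In the contact system, Klkb1, the precursor of plasma kallikrein, was lower at 48 h, F12 at 72 h and Kng1, the source of bradykinin, at 96 h. Of the fibrinolysis genes, Plg was lower at 48 h and Serpinf2, the inhibitor of plasmin, was in no call. Hrg and Vtn, which encode the plasma proteins histidine-rich glycoprotein and vitronectin, were both lower at 48 h. Some of these calls were not seen by percentile or by rank among coding promoters. They were Proc, Klkb1 and Vtn at 48 h, Proc and F12 at 72 h and Kng1 at 96 h. Ranked by fold enrichment, Proc and Klkb1 were lower at 48 h.

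In complement, C6, C8b and C8g of the terminal pathway, Cfb of the alternative pathway and Mbl2 of the lectin pathway were lower at 48 h. The promoter of C3, the component on which all pathways converge, ranked 35773 and 32250 at 0 h against 53184 and 20595 (48 h), 37775 and 46231 (72 h) and 53010 and 23185 (96 h). C3 was lower at 72 h by a small margin, and its 2 libraries lay on opposite sides of 0 h at 48 and 96 h. C9, another terminal component, was higher at 72 h and lower at 96 h, and its 48 h ranks were 87475 and 23103. C2 was lower at 72 and 96 h. By percentile and by rank among coding promoters, C8b at 48 h, C3 at 72 h and C2 at 72 and 96 h were not lower. By percentile, C8g at 72 h and C9 at 96 h were not lower either. 7 complement promoters were in no call at any time, namely C4b, Hc, C8a, Cfi, C4bp, Masp1 and Masp2. That is 43.8% of complement, where 14.3% of coagulation promoters and 26.8% of coding promoters in both 0 h lists were in no call, and the difference between the lists was not tested. C4b has a near-identical copy next to it in the mouse genome, so its reads may be shared with that copy. The same holds for Kng1 and its copy Kng2.

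Promoter changes were also tested across all regions. Overlapping intervals of the 8 lists were merged into 315767 regions, of which 609 lay at member loci. The 57473 regions with an interval in all 8 lists were tested by limma on quantile-normalised log2 fold enrichment. At an adjusted p (Benjamini-Hochberg) under 0.05, 0 regions were called at 48, 72 or 96 h or for all PHx libraries against 0 h (0% of those tested). At an unadjusted p under 0.05, 10.1% of all regions passed at 48 h, 6.25% at 72 h, 5.65% at 96 h and 7.81% for all PHx libraries. Of the 77 coagulation regions 11 passed at 48 h (14.3%), and of the 66 complement regions 5 (7.58%). At 72 h 3 and 2 passed, at 96 h 4 and 3, and for all PHx libraries 6 and 2. These shares are near the background, and no member region is a call.

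The fitted promoter changes were small on this scale. The median log2 change at 48 h was -0.08 over the 19 coagulation promoters tested and -0.21 over the 16 of complement, beside 0.01 over 13456 regions at coding promoters. F9 had a log2 change of -0.59 (SE 0.29) at 48 h, -0.98 (SE 0.29) at 72 h and -0.51 (SE 0.29) at 96 h, and its limma adjusted p for all PHx libraries was 0.498. Mbl2 had -0.59 (SE 0.31), -0.40 (SE 0.31) and -0.76 (SE 0.31), with an adjusted p of 0.581 by limma for all PHx libraries. C6 had -0.49, -0.44 and -0.44 (SE 0.29 each). Serpind1 had -0.41, -0.44 and -0.33 (SE 0.28 each). Fga had -0.45, -0.59 and -0.24 (SE 0.30 each). All 5 had a negative change at each time, and none passed the threshold after adjustment. Fgb and F11 were not in this test, since no single promoter region of theirs had an interval in all 8 lists.

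Outside promoters, the loci held many more open regions. The gene bodies with 10 kb on each side contained 250 such regions at coagulation genes and 274 at complement genes, leaving out promoters of any coding gene. A coagulation gene had a median of 12 regions beside its own promoter region and a complement gene 18, with ranges of 3 to 32 and 6 to 47. F5 with 32 and Hc with 47 had the most. Intervals were found in all 8 lists for 51 coagulation regions (20.4%) and 41 complement regions (15%), beside 15% of regions near all coding genes. Intervals were found in 1 list only for 34.4% and 39.1%, beside 53.4%. The promoter value at 0 h was not behind any region of the locus for 8 coagulation genes and 6 complement genes, by the median of the 2 ranks, so at most members a region elsewhere at the locus ranked ahead of it.

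The 3 strongest regions at 0 h outside the own promoters of coagulation genes included 2 promoters of neighbouring genes. One was the Plrg1 promoter near Fgb, with ranks of 5601 and 3536 at 0 h against 6727 and 12741 (48 h), 6508 and 14688 (72 h) and 6534 and 3363 (96 h). The other was the shared promoter of Poldip2 and Tmem199 near Vtn, with 7791 and 4320, 20524 and 13291, 10380 and 12065, and 9773 and 9210. The third lay in an intron of Pros1 (chr16:62921741-62922739) at 68174 bp from the start site. It ranked 3337 and 7955 at 0 h against 1943 and 1005 (48 h), 1059 and 885 (72 h) and 559 and 2704 (96 h). This Pros1 region was higher at each time and in all 6 PHx libraries, with a log2 change of 0.38 (SE 0.18) at 48 h and a limma adjusted p of 0.474. The Poldip2 and Tmem199 promoter was lower at each time, and the Plrg1 promoter at 48 and 72 h.

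In complement, the strongest such region lay downstream of C4bp (chr1:130633836-130634738), with ranks of 6242 and 7087 at 0 h against 6621 and 3174 (48 h), 5570 and 2395 (72 h) and 1958 and 3562 (96 h). It was higher at 72 and 96 h. The next were the Srm promoter near Masp2 and the Pla2g12a promoter near Cfi. The Srm promoter ranked 9645 and 6942 at 0 h against 25683 and 24318 (48 h), 15662 and 22420 (72 h) and 23385 and 4646 (96 h). The Pla2g12a promoter ranked 12616 and 6332, 9475 and 9187, 14313 and 13302, and 11999 and 13893. The Srm promoter was lower at 48 and 72 h and the Pla2g12a promoter at 72 h.

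Regions outside promoters were counted in the same way. Of regions with an interval in both 0 h lists, 40 of 92 at coagulation genes (43.5%) and 26 of 81 at complement genes (32.1%) were lower at 48 h, beside 32.0% near all coding genes. At 72 h the lower counts were 32 (34.8%) and 30 (37.0%), beside 26.6%, and at 96 h 32 (34.8%) and 28 (34.6%), beside 27.2%. Higher regions at 48 h numbered 22 of 75 and 18 of 67, beside 27.1%. At 72 h they numbered 16 of 91 and 22 of 89, beside 30.1%, and at 96 h 16 of 81 and 17 of 65, beside 25.0%. At all 3 times, 14 coagulation and 11 complement regions were lower, which is 15.2% and 13.6% of those in both 0 h lists, beside 9.37% near all coding genes. There were 3 and 2 regions that were higher at all 3 times, which is 5.36% and 4.76% of those in all PHx lists, beside 6.03% near all coding genes.

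The region of coagulation genes with the smallest p at 48 h lay in an intron of F9 (chrX:60014372-60014977), 15200 bp from the start site. Its ranks were 25680 and 32988 at 0 h against 112060 and 73898 (48 h), 50749 and 28353 (72 h) and 42191 and 15420 (96 h). It was lower at 48 h and overlapped 0 h at 72 and 96 h. The log2 change at 48 h was -1.42 (SE 0.34), with a limma adjusted p of 0.240. The next were a region downstream of F11 (chr8:45236304-45236911) and an intronic region of F5 (chr1:164158184-164159045). The F11 region ranked 56671 and 50063 at 0 h against 17227 and 15824 (48 h), 54500 and 24154 (72 h) and 89525 and 40329 (96 h), with a log2 change at 48 h of 1.12 (SE 0.35, limma adjusted p = 0.303). The F5 region ranked 49623 and 60447, 18615 and 19078, 55023 and 21629, and 50608 and 52345, with a log2 change at 48 h of 0.91 (SE 0.32, limma adjusted p = 0.348). Both were ahead of 0 h at 48 h, and the F11 region was so while the F11 promoter was lower.

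In complement, the smallest p at 48 h belonged to an intronic region of Cfi (chr3:129845903-129846478), the protease that inactivates C3b and C4b. It ranked 117428 and 99311 at 0 h against 58396 and 64570 (48 h), 77803 and 62620 (72 h) and 97582 and 53835 (96 h). It was higher at each time, with a log2 change at 48 h of 0.93 (SE 0.29, limma adjusted p = 0.301). A region over an exon of C8a (chr4:104816387-104818264) ranked 23270 and 21900 at 0 h against 9111 and 5205 (48 h), 14932 and 29631 (72 h) and 27389 and 20167 (96 h). Its log2 change at 48 h was 0.73 (SE 0.31, limma adjusted p = 0.440). A second intronic region of Cfi (chr3:129863505-129864016) ranked 61961 and 46804, 39519 and 13833, 64335 and 40905, and 39400 and 23197, with a log2 change of 0.75 (SE 0.34, limma adjusted p = 0.461). In C8a the higher rank was seen at 48 h alone. None of the 6 regions with the smallest p passed the threshold after adjustment.

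**Figure D3:**
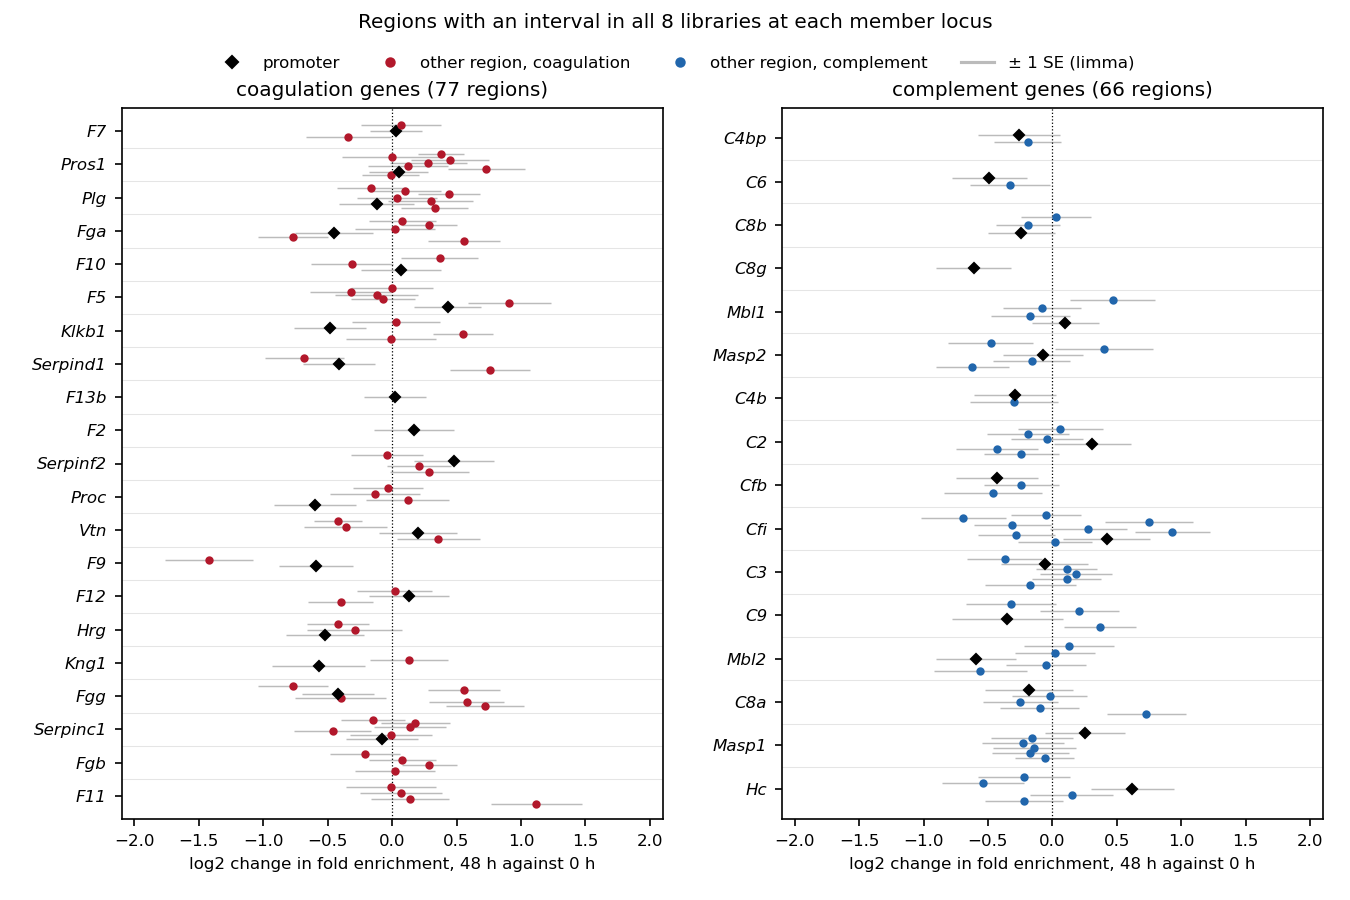
Log2 change in fold enrichment at 48 h against 0 h with its SE from limma, for the regions with an interval in all 8 libraries at each coagulation locus (left, 77 regions) and complement locus (right, 66 regions); diamonds are own promoters, and a region shared by neighbouring members is drawn at each. The F9 intron at -1.42 and the F11 downstream region at 1.12 lie furthest from 0, and most loci hold regions on both sides.

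Regions with the same direction at all 3 times were also found at other strong members, and those named here were picked after their values were seen. A region downstream of F10 (chr8:13056398-13057921) ranked 5857 and 7427 at 0 h against 14575 and 30414 (48 h), 14174 and 25361 (72 h) and 12649 and 21553 (96 h). An intronic region of Serpinc1 (chr1:160986947-160987914) ranked 15515 and 8291, 33720 and 24111, 21967 and 24142, and 23549 and 24000. A region upstream of C3 (chr17:57232847-57234184) ranked 20760 and 18821, 39494 and 38918, 45056 and 35659, and 23606 and 37929. All 3 were lower at each time. Between Fgg and Fga lies a region (chr3:83020217-83020719) that ranked 27330 and 24850, 88371 and 50231, 41883 and 64290, and 58610 and 48251. It was also lower at each time, as was the Fga promoter, whereas the Fgg promoter was lower at 48 h alone.

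The member promoters shared a sequence property that their choice did not use. RefSeq promoters, from 250 before to 50 after the start site, were matched for 18 coagulation and 11 complement genes (12 promoters, since C8g has 2). The ratio of observed to expected CpG dinucleotides had a median of 0.27 in coagulation and 0.25 in complement, beside 0.59 over 20150 coding promoters. A ratio under 0.5 was found in 17 of 18 and 11 of 12, beside 44.0% of coding promoters. Pros1, with 0.645, was the 1 coagulation promoter above this limit. CpG-poor promoters are typical of tissue-specific genes. The comparison is a description, and its part in the ranks after PHx was not tested.

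**Figure D4:**
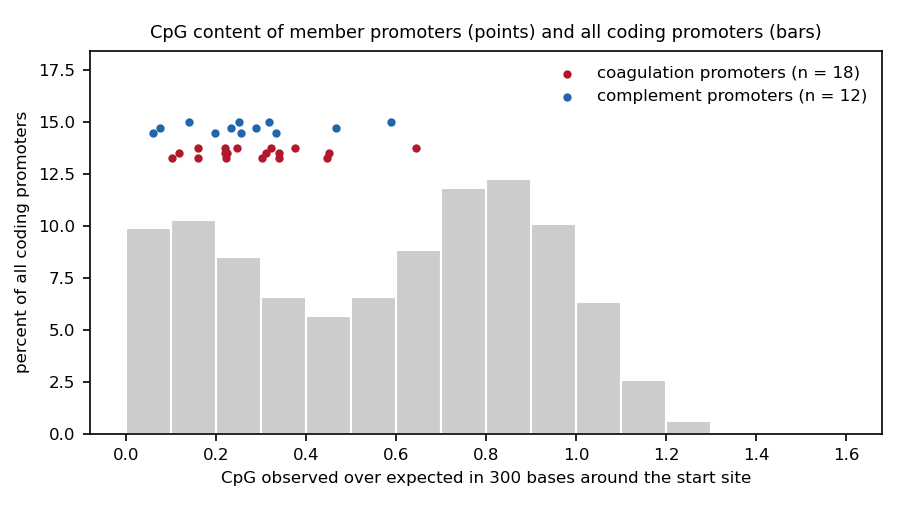
Ratio of observed to expected CpG in promoters from 250 bases before to 50 after the start site. Bars count each of 16522 coding genes once, by the highest ratio among its promoters, as percent in bins of 0.1. Points give each of the 18 coagulation and 12 complement promoters, and their height has no meaning. All but 2 member promoters lie under 0.5, as do 44.0% of the 20150 coding promoters when each promoter is counted.

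7 motifs were sought on both strands of these promoters, with N for any base. They were 6 of liver or acute-phase factors and a core promoter element, namely HNF4 (CAAAGTCC), HNF1 (GTTAATNAT), FOXA (TGTTTAC or TATTTAC), C/EBP (TTNNGCAA), STAT (TTCCNGGAA), NF-kB (GGGNNTTCC) and the TATA box (TATAAA). Matches to different motifs may overlap. C/EBP was found in 7 coagulation promoters (38.9%) and 2 complement promoters (16.7%), beside 10.0% of coding promoters. FOXA was found in 5 (27.8%) and 0, beside 5.39%, and HNF1 in 2 (11.1%) and 2 (16.7%), beside 0.71%. The HNF1 promoters were F13b, Fga, C4bp and Hc. STAT was found in 2 (11.1%) and 0, beside 1.20%, NF-kB in 1 and 0, beside 6.35%, and the TATA box in 3 and 2, beside 12.1%. HNF4 was found in none, beside 1.46%. Of the 51 and 41 regions outside promoters with an interval in all 8 lists, 13.7% and 24.4% held a C/EBP match in 200 bases around the summit, beside 14.6% near all coding genes. A match is a stretch of letters and does not show that the factor was bound.

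A list of related coagulation genes also held other plasma and liver genes, such as the asialoglycoprotein receptor genes Asgr1 and Asgr2, inter-alpha-trypsin inhibitor heavy chains (Itih1 and Itih4) and Ahsg, which encodes fetuin-A. Of 29 related coagulation genes, 25 had a promoter interval in both 0 h lists. 8 of these 25 were lower at 48 h (32%), 11 at 72 h (44%) and 13 at 96 h (52%), where the shares of coding promoters were 29.7%, 32.5% and 20.5%. Higher promoters numbered 2 of 25, 2 of 27 and 1 of 25 with an interval in both lists of the time, beside 18.2%, 17.6% and 15.7%. F8, Asgr1, Asgr2, Itih1, Itih4 and Ahsg were lower at all 3 times, and Procr, the endothelial protein C receptor, was higher at all 3. F3, which encodes tissue factor, had a strong promoter with a median rank of 5795.5 at 0 h and was in no call. Of 29 related complement genes, 15 had a promoter interval in both 0 h lists. Lower promoters numbered 7 at 48 h (46.7%), 6 at 72 h (40%) and 3 at 96 h (20%) against the same shares. Higher promoters numbered 2 of 16, 5 of 18 and 3 of 17. Cpn2, a subunit of carboxypeptidase N, was lower at all 3 times. 8 of these genes had no promoter interval in any list, among them C1qa, C7, Cfp and Cfd, which are made mainly by cells other than hepatocytes.

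The labelled cell type was checked on marker genes. All 10 hepatocyte markers had a promoter interval in both 0 h lists, though that of Alb was listed in 3 of the 8 lists only. All 10 were lower at 48 h, 7 at 72 h and 6 at 96 h, and none was higher, beside the 29.7%, 32.5% and 20.5% lower of coding promoters. Of markers of stellate cells and fibroblasts, 3 of 5 were higher at 48 h (Reln, Des and Col1a1), 0 of 4 at 72 h and 2 of 4 at 96 h, beside 18.2%, 17.6% and 15.7% of coding promoters, and 0 of 3 were lower at each time. For cholangiocytes 2 of 5 were lower and 1 of 4 higher at 48 h, 2 of 5 lower at 72 h, and 0 lower or higher at 96 h. For endothelial cells 0 of 3 were lower at each time, 1 of 2 was higher at 48 h and 1 of 4 at 96 h. For Kupffer cells and leukocytes 1 marker, Cd68, was higher at 48 h and lower at 72 h. Of 10 markers of Kupffer cells and leukocytes, 7 had no promoter interval in any list, among them Ptprc and Csf1r, and the number listed ranged from 1 to 2 across the 8 libraries. For endothelial cells the number ranged from 3 to 7 of 10, for stellate cells and fibroblasts from 3 to 6, and for cholangiocytes from 4 to 8. The part of these markers in the member results was not tested.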

How the data were processed

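Accessibility was measured in 8 ATAC-Seq libraries, 2 at each time point, and samples were grouped by their labels. The study's text gives more biological replicates for this assay than the 2 per time point analysed here. The authors' methods state that they trimmed the reads, mapped them to mm10 with Bowtie2, removed PCR duplicates and called peaks with MACS2. Each library has its own deposited list, and pooling of reads before calling is not mentioned. Tool versions are not given in the sources used here. The deposited lists give, for each peak, the −log10 of p and of q, the fold enrichment above local background, a display score and a summit, as the authors' peak caller wrote them. The score entered no comparison.

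Lines sharing an interval were collapsed to the one with the highest −log10 p, and intervals were ranked within a list. Ranks depend on depth and list length, which is why percentiles and ranks among coding promoters were also used. Genes and start sites came from GENCODE M21, and 0 regions ended past their chromosome in GRCm38.p6. Intervals overlapping by at least 1 bp were merged into regions. Regions found in all 8 lists were tested with limma 3.58.1 (R 4.3.3) on quantile-normalised log2 fold enrichment in 1 fit of the 4 time points, with Benjamini-Hochberg adjustment over 57473 regions and a threshold of 0.05. The filter drops regions that close fully at any time, so they are covered only by the rank counts. The study's test on read counts was not run, since the lists hold none.

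The members and all gene lists were chosen with earlier results of these data known. Values in every library were given for the 4 best and 2 worst promoters at 0 h in each list, promoters with the same call at all 3 times, the 3 regions with the smallest p at 48 h and the 3 strongest other regions in each list. Others named were chosen after their values were seen. Alternatives were other rankings, a q under 0.05, a start-site window of 500 bp, other normalisations, overlaps and filters, 5 kb flanks, and leaving out each library. The study's text describes biological replicates from separate hepatocyte preparations at 0 and 48 h. Nothing in the labels says whether the 2 libraries of a time point came from separate animals, so limma's p-values measure the spread between these libraries. The Proc promoter sequence is not reported here.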

Additional observations from a re-analysis of the deposited data

How the results depend on the processing

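Ranked by fold enrichment, higher coagulation promoters numbered 2 at 48 h and 4 at 96 h, higher complement promoters 1 at 48 h, and lower complement promoters 2 at 72 h and 2 at 96 h. Of coding promoters, 21.8% and 16.4% were then higher at 48 and 96 h and 27.5% and 15.6% lower at 72 and 96 h. By percentile, higher coagulation promoters were 2 at 48 h and 3 at 96 h, lower coagulation promoters 5 at 72 h, higher complement promoters 1 at 48 h and 4 at 96 h, and lower complement promoters 2 at 72 h and 2 at 96 h. Among coding promoters alone, an alternative chosen after seeing the data, higher coagulation promoters were 3 at 48 h and 2 at 96 h, higher complement promoters 1 at 48 h, and lower complement promoters 3 at 72 h, with 17.9% of coding promoters higher at 96 h. With a window of 500 bp, 1 complement promoter was higher at 48 h and 2 were lower at 96 h, beside 17.6% and 20.7% of coding promoters. Lower coagulation promoters at 72 h came to the background with that window (7, 33.3%, beside 33.0% of coding promoters) and by fold enrichment (6, 28.6%, beside 27.5%). A q under 0.05 changed no promoter count.

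Leaving out a library makes it easier not to overlap, and counts then grew or stayed the same. Lower coagulation promoters ranged from 13 to 17 at 48 h, 10 to 16 at 72 h and 10 to 12 at 96 h, and lower complement promoters from 5 to 10, 6 to 9 and 5 to 9. Higher coagulation promoters ranged from 2 to 5, 2 to 3 and 3 to 6, and higher complement promoters from 2 to 4, 3 to 5 and 3 to 5. Under the same omissions, 40.7% to 48.4%, 44.5% to 49.4% and 33.1% to 45.9% of coding promoters were lower and 28.3% to 35.1%, 27.8% to 33.1% and 27.4% to 38.8% higher. The lower coagulation count at 72 h was 16 when 0 h replicate 1 was left out and also 16 when 72 h replicate 1 was, and at 96 h it was 12 when 0 h replicate 1 was. The lower complement count at 48 h was 9 when 0 h replicate 1 was left out and 10 when 48 h replicate 2 was. Lower regions outside promoters ranged at coagulation genes from 53 to 77, 44 to 77 and 43 to 77 at 48, 72 and 96 h, and at complement genes from 40 to 77, 44 to 79 and 45 to 78. Higher ones ranged from 30 to 57, 32 to 59 and 27 to 50, and from 22 to 61, 27 to 68 and 22 to 57. Near all coding genes 48.0% to 56.4%, 42.2% to 55.0% and 42.5% to 54.7% of such regions were then lower and 38.4% to 61.3%, 43.0% to 60.0% and 37.3% to 57.9% higher. With 5 kb flanks, 210 coagulation and 246 complement regions were counted.

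limma called 0 member regions under each of 14 alternatives. Over all regions, log2 of the −log10 p gave 3 lower and 12 higher regions at 48 h, 1 higher at 72 h and 27 higher for all PHx libraries. With the replicate number as a block, 2 were lower and 1 higher at 48 h. Correlations of same-numbered deviations between time points ran from -0.0553 to 0.125. They were taken after quantile normalisation, so they cannot show whether same-numbered libraries were handled together. Without 1 library in turn, lower calls ranged from 0 to 7 at 48 h, 0 to 1 at 96 h and 0 to 1 for all PHx libraries, and higher calls from 0 to 6 at 72 h, 0 to 1 at 96 h and 0 to 41 for all PHx libraries. The 41 came without 0 h replicate 1, and 7 and 4 lower at 48 h came without 48 h replicates 1 and 2. The cause of these shifts was not tested. The 6 named regions kept their sign in every setting in which they were tested, with log2 changes of -2.25 to -1.11 in the F9 intron and 1.01 to 1.75 downstream of F11, and adjusted p from 0.12 to 0.97 over all 6 by limma.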
